A study of Mus musculus with 59 samples.

Results

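The 10 genes described here are the G1 cyclins Ccnd1, Ccnd2, Ccnd3, Ccne1 and Ccne2, the cyclin-dependent kinases they activate (Cdk4, Cdk6 and Cdk2) and the inhibitors Cdkn1b and Cdkn1c, out of 37163 genes or transcripts on the array. They are read by 14 of 55681 probes. The set was chosen by name as one pathway, in part because Ccnd1 had been seen to change in lung and liver in these data, so the lung and liver changes below are a description and carry no test. Changes in forestomach and differences between the tissues of vehicle mice played no part in that choice and were tested.

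Adult male Muta™Mouse, a transgenic mouse strain used for mutation assays, about 16 weeks old and housed singly, received benzo(b)fluoranthene (BbF), a polycyclic aromatic hydrocarbon, in olive oil by daily oral gavage for 28 days, or olive oil alone. All mice carried the strain's transgene, vehicle mice included. The vehicle group (dose 0, mice 1 to 5) was compared with 25 (low, mice 6 to 10), 50 (medium, mice 11 to 15) and 100 (high, mice 16 to 20) mg/kg-bw/day, and lung, liver and forestomach were taken 72 hours after the last dose. Of 59 arrays, 19 are from lung and 20 each from liver and forestomach, with 5 mice in each of the 12 groups except low-dose lung (n = 4). RNA was taken from random slices of forestomach, left liver lobe and right lung lobe. The sample labels name BbF in the titles and the treatment protocol but benz(a)anthracene in an exposure field; the doses are those of BbF.

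D-type cyclins are made in response to growth signals and bind Cdk4 or Cdk6, and the active kinase phosphorylates the retinoblastoma protein. Release of E2F transcription factors from that protein turns on cyclin E, which binds Cdk2 and carries the cell from G1 into S phase. Cdkn1b (p27) and Cdkn1c (p57) bind cyclin-kinase complexes and hold the cell in G1. Levels below are log2 ratios of the Cy5 signal from tissue over that of a Cy3-labelled reference RNA from 11 mouse cell lines on the same array, after loess normalization. Levels of different genes are not compared. A gene is given by its brightest probe. A gene was called where limma's Benjamini-Hochberg adjusted p over all probes was 0.05 or less and the change was 1.5-fold or more. In RNA from whole tissue, fewer cells of a type and less RNA per cell cannot be told apart.

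The tissue labels were checked with defining markers. The mean log2 ratio of 3 lung epithelial genes was at least 6.82 on each lung array and at most 2.02 on any other array. That of 3 hepatocyte genes was at least 5.64 in liver and at most 4.60 elsewhere, whereas 3 squamous keratins averaged 4.69 or more in forestomach and 4.26 or less elsewhere. The 4.26 belongs to the lung array of low-dose mouse 6, whereas the other lung arrays lay between -0.81 and -0.26. The 4.60 is from medium-dose forestomach. There the hepatocyte mean ran from 2.30 to 4.60, against 0.08 to 2.58 in vehicle forestomach. The 8 arrays of the third liver slide (1 vehicle, 2 low, 2 medium and 3 high) had only 10.8 to 12.9% of probes well above background, against 37.1 to 46.2% on the other liver slides. On the lung array of medium-dose mouse 13, 68.8% of probes were well above background, against 44.8 to 52.7% on the other lung arrays. Values without mouse 6, mouse 13 or that slide are given where they bear on a result.

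Ccnd1 (cyclin D1, NM_007631) was called higher in lung at the medium and the high dose. In vehicle lung its log2 ratio was 1.15, 1.18, 1.22, 1.33 and 1.19 in mice 1 to 5, and in high-dose lung it was 2.63, 2.42, 2.00, 2.33 and 2.80 in mice 16 to 20. The groups did not overlap, and the change was 1.22 ± 0.15 on the log2 scale (SE, 5 against 5 mice), or 2.33-fold. At the medium dose the 5 mice ranged from 1.45 to 2.29, also above every vehicle mouse, a change of 0.70 ± 0.15 (1.62-fold). The low-dose values were 1.20 in mouse 6 and 1.75, 1.77 and 1.86 in mice 8, 9 and 10, so that mouse 6 alone lay within the vehicle range. The low-dose change was 0.43 ± 0.16, and 0.58 without mouse 6, and neither was called. The medium-dose call was lost when medium-dose mouse 12 or 15 or vehicle mouse 1 was left out, and without mouse 13 the change was 0.81. Within each of the 3 lung slides the high-dose mean lay above the vehicle mean, by 1.36, 0.73 and 1.37 (1 or 2 mice of each group a slide).

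In liver the mean of Ccnd1 was higher at each dose, and whether this was called depended on how the slides were handled. The vehicle values were -3.05, -2.70, -2.75 and -2.47 in mice 1 to 4 and -1.32 in mouse 5, whose array was on the third slide and not well above background for Ccnd1. In high-dose mice 16 to 20 they were -1.17, -0.43, -0.44, -0.41 and -0.31, all above the highest vehicle mouse. The low-dose change was 0.76 ± 0.32, the medium-dose change 1.17 ± 0.32 and the high-dose change 1.91 ± 0.32 (3.75-fold). None of these was called. With slide as a block, which keeps every array, the changes were 0.62, 1.03 and 1.52, and those at the medium and high dose were called. The high-dose change was also called once high-dose mouse 16 or vehicle mouse 5 was left out. Without the third liver slide (4 vehicle and 2 high-dose mice) the high-dose change was 1.94 and the medium-dose change 1.25, and both were called. Within the second slide the high-dose mean exceeded the vehicle mean by 2.08, and within the third by 0.93. When each array was only centred on its median, the liver changes were 0.11 at the high, 0.26 at the medium and -0.0097 at the low dose, where the direction turned. On that scale Ccnd1 lay between -6.63 and -6.03 on the third slide and between -4.03 and -1.55 on the others, and without the third slide the centred changes were 2.16, 1.28 and 0.77.

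In forestomach Ccnd1 showed no change past the threshold. Vehicle mice ranged from -0.73 to 0.09 with a median of -0.57, and high-dose mice from -0.67 to -0.22 with a median of -0.48, so the groups overlapped throughout. The 95% confidence interval of the high-dose change was -0.32 to 0.32 (adjusted p of limma 1), and median centring gave a change of 0.32. The difference between the tissues in their response was not tested. The intervals were -0.23 to 0.41 at the low dose (adjusted p 0.978) and -0.43 to 0.21 at the medium dose (adjusted p 0.948). The slide-coloured plot of Ccnd1 shows these values mouse by mouse.

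**Figure D1:**
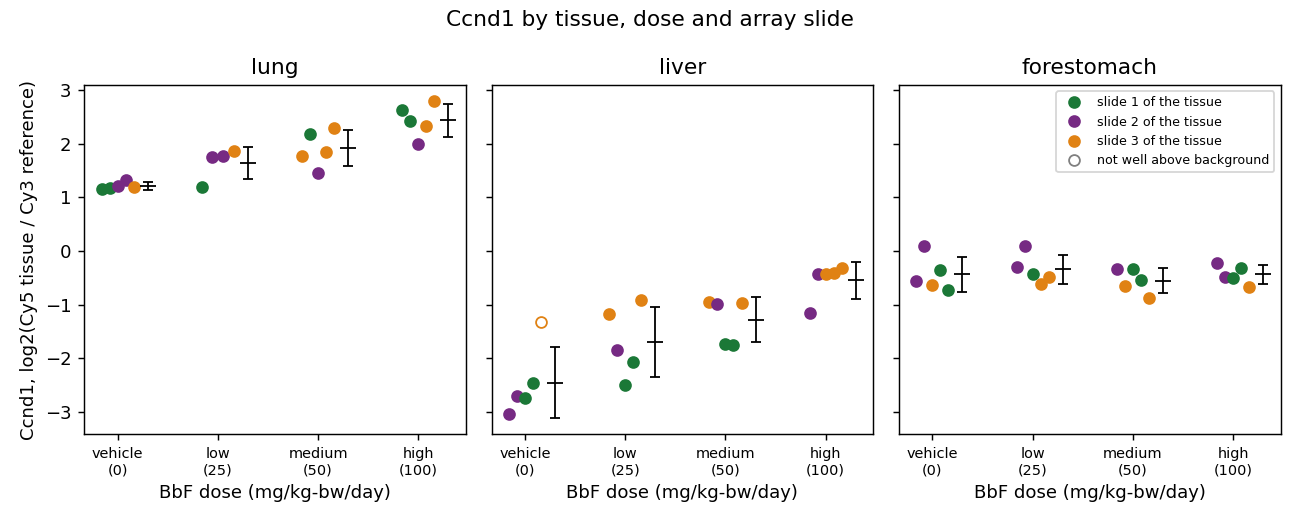
Log2 ratio of Ccnd1 to the reference RNA (y axis) by BbF dose in mg/kg-bw/day (x axis) in lung, liver and forestomach. Each point is 1 mouse, coloured by the array slide within the tissue and open where the probe was not well above background, and the bar beside each group is the mean ± SD; high-dose lung mice lie between 2.00 and 2.80 above vehicle mice between 1.15 and 1.33, and in liver the mice of the third slide lie highest in the vehicle and low-dose groups. When arrays are only centred on their medians, the low-dose liver difference changes sign to -0.0097.

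Ccnd2 and Ccnd3, the other D-type cyclins, were called higher in high-dose lung as well. Ccnd2 (cyclin D2, NM_009829) had log2 ratios of -0.34, -0.41, -0.08, -0.42 and -0.25 in vehicle mice 1 to 5 and 0.35, 0.58, 0.21, 0.63 and 0.64 in high-dose mice 16 to 20. The groups did not overlap, with a change of 0.78 ± 0.15 (1.72-fold). The medium-dose mice spread widely, from -0.20 to 0.72, and their mean lay 0.57 ± 0.15 above vehicle. In liver no array of the third slide measured Ccnd2 well above background, and its high-dose change of 0.47 ± 0.47 turned to -0.10 without that slide and to -0.90 with median centring.

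Ccnd3 (cyclin D3, NM_001081636) was 0.29, 0.56, 0.60, 0.62 and 0.53 in vehicle lung and 1.27, 1.17, 1.20, 1.01 and 0.94 in high-dose lung. Again no high-dose mouse fell into the vehicle range, and the change was 0.60 ± 0.10 (1.51-fold), just past the fold threshold, so that it was no longer called when vehicle mouse 1 (0.54) or one of the high-dose mice 16 (0.56), 17 (0.58) and 18 (0.58) was left out. Its other probe rose by 0.64 ± 0.09. Without mouse 6, the low-dose changes were 0.40 for Ccnd2 and 0.31 for Ccnd3, against 0.29 and 0.19 with it, and neither gene was called. Of the genes not called in high-dose lung, Cdkn1b (1.37-fold lower) and Ccne1 (1.24-fold higher) had the next largest changes of those above background. In liver the high-dose difference of Ccnd3 was 0.59 ± 0.23 with loess, but -1.25 with median centring and 0.51 with centring and without the third slide.

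Ccnd3 is the only D-type cyclin with a promoter in the RefSeq table used here (build GRCm38.p6, from 250 bases before to 50 after an annotated start). Its 2 starts are shown because the gene was called in lung, and they lie on the plus strand at chr17:47504801-47505100 (start 1) and chr17:47593217-47593516 (start 2). Capitals mark the letters GCGTG on either strand (CACGC on the other), the core to which the aryl hydrocarbon receptor (AhR), the receptor for polycyclic aromatic hydrocarbons, binds with its partner.
Ccnd3 start 1: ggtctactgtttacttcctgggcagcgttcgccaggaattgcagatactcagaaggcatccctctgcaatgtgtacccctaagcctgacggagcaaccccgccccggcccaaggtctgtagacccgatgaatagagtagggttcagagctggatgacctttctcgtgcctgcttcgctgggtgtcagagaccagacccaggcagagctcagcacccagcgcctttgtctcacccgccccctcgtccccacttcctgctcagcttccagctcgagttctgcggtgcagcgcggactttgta
Ccnd3 start 2: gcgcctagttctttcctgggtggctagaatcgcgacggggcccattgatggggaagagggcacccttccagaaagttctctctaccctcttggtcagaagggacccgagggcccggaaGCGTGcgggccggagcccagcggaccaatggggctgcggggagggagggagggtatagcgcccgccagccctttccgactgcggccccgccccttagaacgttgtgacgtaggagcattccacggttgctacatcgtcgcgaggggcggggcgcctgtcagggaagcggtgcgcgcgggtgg
Start 1 holds no such match and start 2 holds 1. These 5 letters occur in 32.4% of the 32851 promoters of 300 bases in the table, and in 4 of the 7 promoters that 6 of the 10 genes have there. The E2F letters TTTCGCGC or TTTGGCGC, searched on both strands, occur in 0.813% of all promoters and in 0 of those 7. The 2 kinds of match can overlap, which did not arise in these 7. A match is a description of letters, not of binding. No promoter is shown for Ccnd1, Ccnd2, Ccne2 and Cdkn1c.

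Neither of the kinases that pair with D-type cyclins was called at any dose in the main analysis. Cdk4 lay between -1.15 and -0.95 in vehicle lung and between -1.35 and -1.06 in high-dose lung, overlapping, with a change of -0.15 ± 0.08. Its 2 other probes moved the other way at that dose, by 0.21 ± 0.07 and 0.08 ± 0.08, and median centring gave 0.34 for the brightest probe, so no direction can be given. Cdk6 was not well above background on the 15 vehicle arrays and was above it on only 1 low-dose lung and 1 high-dose forestomach array, so no fold is given. In liver Cdk4 was -2.23, -2.26, -2.26 and -2.22 in vehicle mice 1 to 4 and -1.82 in mouse 5 on the third slide. Its high-dose change in liver was 0.44 ± 0.26 with loess and -1.52 with median centring, and it was not called. Without the third slide the liver changes of Cdk4 were 0.02, -0.02 and 0.03 at the low, medium and high dose.

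Ccne1 (cyclin E1, NM_007633, the partner of Cdk2) followed another course in lung. It was -2.12, -1.98, -2.04, -1.68 and -1.90 in vehicle mice, -1.48, -1.56, -1.61 and -1.23 in low-dose mice 6, 8, 9 and 10, and between -1.56 and -1.16 in the 5 medium-dose mice. Neither the low nor the medium group overlapped with vehicle. The changes were 0.47 ± 0.10 at the low and 0.58 ± 0.10 at the medium dose (1.39-fold and 1.498-fold, the latter just under the threshold). At the high dose the mice lay between -1.78 and -1.41, overlapping with vehicle, with a change of 0.31 ± 0.10. Ccne1 was thus highest at the medium dose, whereas the 3 D-type cyclins were highest at the high dose. Its other probe was not well above background on 18 of the 19 lung arrays. With median centring the changes were 0.66, 0.72 and 0.68, and all 3 were called. Without mouse 6 the low-dose change was 0.47, and without mouse 13 the medium-dose change was 0.63 and was called.

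The RefSeq promoter of Ccne1, on the minus strand at chr7:38107441-38107740 in GRCm38.p6, is shown because it holds more of the AhR letters than any of the other 6 promoters. Capitals mark 3 matches, all reading CACGC on this strand.
Ccne1 start: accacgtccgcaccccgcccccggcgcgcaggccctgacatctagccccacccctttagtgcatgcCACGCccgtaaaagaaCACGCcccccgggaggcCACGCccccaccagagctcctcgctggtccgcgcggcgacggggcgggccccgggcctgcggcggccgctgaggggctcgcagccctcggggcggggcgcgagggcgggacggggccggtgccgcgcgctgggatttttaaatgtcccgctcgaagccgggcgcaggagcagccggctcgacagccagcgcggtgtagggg
Ccne2 (cyclin E2) stayed below the background criterion on all 59 arrays, so its levels have no order. Cdk2 lay between -1.299 and -1.06 in vehicle lung and between -1.31 and -0.91 in high-dose lung, a change of 0.06 ± 0.09. At the low dose all 4 mice, from -1.03 to -0.79, lay above the highest vehicle mouse, by 0.22 ± 0.09 on average, which was not called, and by 0.23 without mouse 6. In liver the third slide decided the values of Ccne1 and Cdk2. There neither gene was well above background, and vehicle mouse 5 had -0.25 for Ccne1 against -1.88 to -1.70 in the other vehicle mice. The high-dose liver changes were 0.78 ± 0.47 for Ccne1 and 0.36 ± 0.21 for Cdk2 with all slides, and 0.19 and 0.14 without the third.

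Of the inhibitors, Cdkn1c was called lower in high-dose lung and Cdkn1b was not called. Cdkn1c (p57, NM_009876) was 3.93, 3.53, 3.42, 3.70 and 3.51 in vehicle mice 1 to 5 and 3.27, 2.65, 2.79, 3.01 and 3.06 in high-dose mice 16 to 20. The groups did not overlap, and the change was -0.66 ± 0.13 (1.58-fold lower). The changes at the low and medium dose were -0.22 ± 0.14 and -0.47 ± 0.13, and with median centring they were 0.0068 and -0.24, with -0.25 at the high dose and no call. Without vehicle mouse 1 the high-dose change was -0.58 and was not called. Within the 3 lung slides the high-dose mean lay below the vehicle mean by 0.77, 0.77 and 0.48. Cdkn1b (p27) lay between 0.59 and 1.04 in vehicle lung and between 0.13 and 0.67 in high-dose lung, where 4 of 5 mice were below every vehicle mouse. Its change of -0.45 ± 0.14 was not called and became 0.04 with median centring. In liver the high-dose changes were -0.32 ± 0.21 for Cdkn1c and 0.19 ± 0.11 for Cdkn1b, and neither was called. Without the third slide they were -0.0062 and 0.27.

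**Figure D2:**
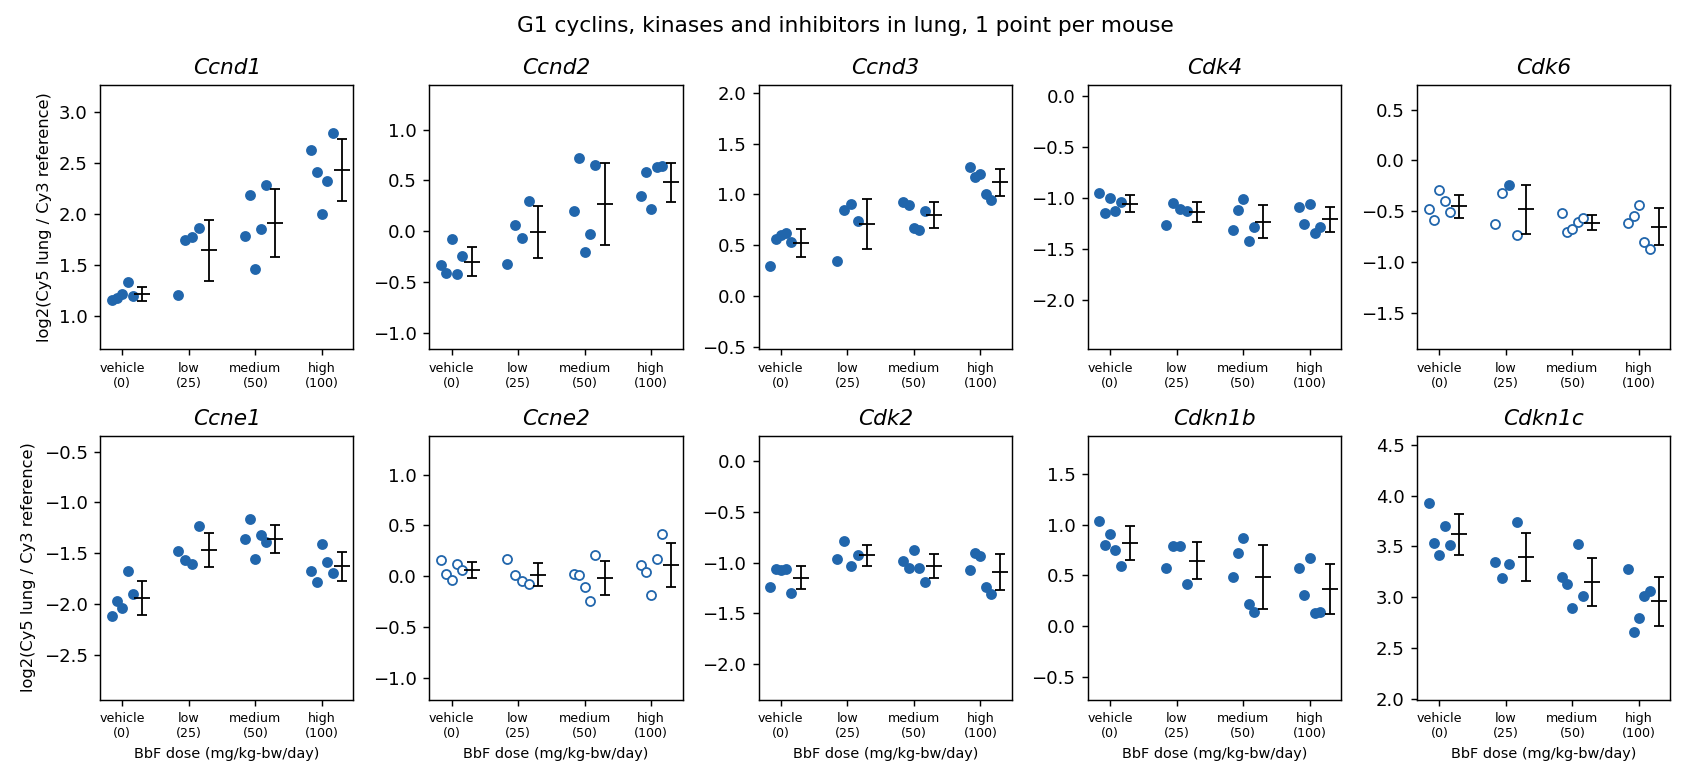
Log2 ratio to the reference RNA in lung (y axis, the same span in each panel) by BbF dose in mg/kg-bw/day (x axis) for the 10 genes. Each point is 1 mouse, open where the probe was not well above background, with the group mean ± SD beside it. The D-type cyclins are highest at the high dose, Ccne1 at the medium dose, and Cdkn1c falls from a vehicle mean of 3.62 to 2.96 at the high dose; with median centring the change of Cdkn1b turns from -0.45 to 0.04 and that of Cdk4 from -0.15 to 0.34.

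Counted together, 4 of the 10 genes were called in high-dose lung (Ccnd1, Ccnd2 and Ccnd3 higher, Cdkn1c lower), against 1.77% of all genes. At the medium dose 1 was called (Ccnd1, against 0.584% of all genes), or 3 without mouse 13 (Ccnd1, Ccnd2 and Ccne1, against 0.821%), and at the low dose 0, against 0.433%. In liver 0 of 10 were called at each dose, against 0% of all genes at low and medium doses and 0.00538% for the high dose. Without the third liver slide Ccnd1 alone was called in medium- and high-dose liver, against 0.490% and 0.971% of all genes. Since Ccnd1 was part of the choice, nothing is read from these counts. The genes with an unadjusted limma p under 0.05 numbered 3, 7 and 6 in lung at the low, medium and high dose, against 10.1, 16.1 and 21% of all genes. In liver they numbered 1, 1 and 2, against 3.31, 4.55 and 8.09%. These counts too are a description of genes chosen in part by such changes, and nothing is read from them. The median change of the 10 genes was 0.08, 0.02 and 0.05 in lung and 0.22, 0.25 and 0.40 in liver, against -0.0022 to 0.0011 and 0.012 to 0.013 over all genes. In lung these medians lie between rises and falls of similar number, 5 of 10 being positive at the low and medium dose. With median centring 4 genes were called in high-dose lung, all higher (Ccnd1, Ccnd2, Ccnd3 and Ccne1). The same change of scaling moved the calls over all genes at that dose from 466 higher and 190 lower to 2990 higher and 31 lower.

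In forestomach 0 of the 10 genes were called by limma at any dose, against 0% of all genes at low and medium doses and 0.0996% for the high dose. Without adjustment, p lay under 0.05 for 1, 1 and 0 of the 10 genes, against 4.67, 5.83 and 8.99% of all genes. These were Cdk4 at the low dose, with -1.05 to -1.01 in 5 treated mice below -0.93 to -0.87 in 5 vehicle mice, and Cdkn1c at the medium dose. The Cdk4 change was -0.12 ± 0.05 (adjusted p 0.976), its 2 other probes gave -0.01 and 0.10, and median centring turned it to 0.10. Cdkn1c, 1.86 to 3.00 in vehicle mice and 1.73 to 2.33 at the medium dose, changed by -0.45 ± 0.20 (adjusted p 0.861). The median change of the 10 genes was -0.03, -0.08 and 0.02.

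**Figure D3:**
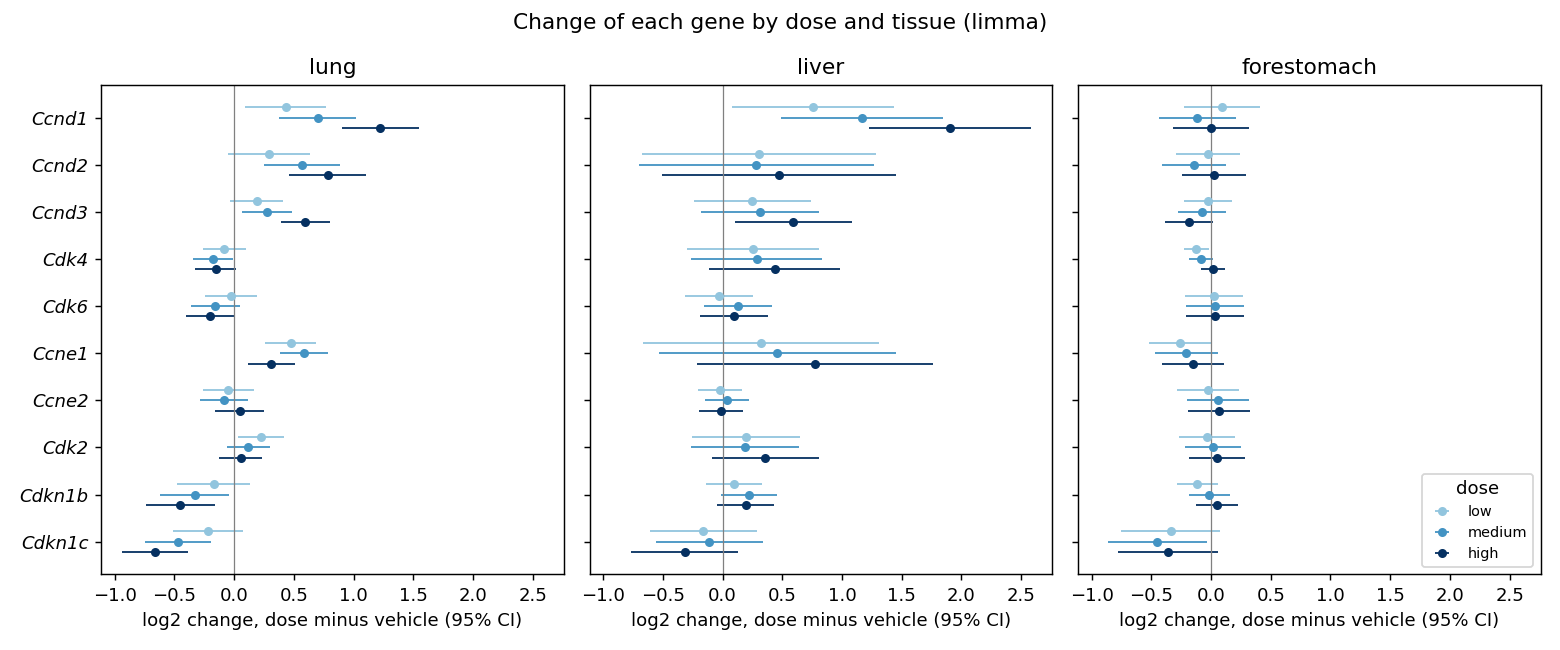
Change of each gene on the log2 scale, dose minus vehicle (x axis, shared by the panels), in lung, liver and forestomach with its 95% confidence interval from limma. In lung the D-type cyclins lie right of 0 and Cdkn1c left of it, in forestomach most intervals span 0, and liver intervals are wide, with Ccnd1 at 1.91 at the high dose; with median centring the liver changes of Ccnd2, Ccnd3, Ccne1, Cdk2, Cdk4 and Cdkn1b turn negative at each dose, and in lung those of Cdkn1b at the low and high dose and of Cdk4 at each dose and of Cdkn1c at the low dose turn positive, as do several uncalled forestomach changes.

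The tissues of the vehicle mice were compared next. Over the 15 vehicle arrays, 6 of the 10 genes were called between lung and liver, all higher in lung, where 29.1% of all genes were called. Between liver and forestomach 6 were called, all lower in liver, against 24.5%, and between lung and forestomach 4, against 23%. Each tissue was hybridized on 3 slides of its own, so tissue and slide cannot be told apart except by treating slide as a random effect. With slide as a random effect the counts of the 3 comparisons were again 6, 6 and 4.

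Ccnd1 ran in the order lung, forestomach, liver, with means of 1.21, -0.44 and -2.46, and none of the ranges overlapped. The lung to liver difference was 3.67 ± 0.25 (12.7-fold, adjusted p 5.93e-09), the forestomach to liver difference 4.05-fold (adjusted p 7.56e-06) and the lung to forestomach difference 3.14-fold (adjusted p 6.43e-05). These p-values share the vehicle lung and liver values with the Ccnd1 changes that entered the choice of genes. Without vehicle liver mouse 5 the lung to liver difference of Ccnd1 was 3.95. Ccnd3 kept the same order, with means of 0.52, -0.28 and -1.36, 3.68-fold apart between lung and liver (adjusted p 3.58e-09). Ccnd2 was instead highest in forestomach (0.22), then lung (-0.30, a difference that did not pass, adjusted p 0.133) and lowest in liver (-1.76, 2.75-fold below lung, adjusted p 0.000135). That liver mean includes mouse 5 on the third slide, at -0.56, against -2.26 to -1.98 in the other vehicle mice.

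Cdkn1c showed the second largest lung to liver difference of the 10 genes, 3.19 ± 0.19 (9.13-fold, adjusted p 1.25e-09). It was 3.42 to 3.93 in lung, 1.86 to 3.00 in forestomach and -0.05 to 0.76 in liver, so that no 2 tissues overlapped. The -0.05 is from mouse 5 on the third liver slide. Cdkn1b was 2.53-fold higher in lung than in liver (adjusted p 5.15e-08) and 1.82-fold higher in forestomach than in liver (adjusted p 1e-05). Cdk4 was very even in forestomach, from -0.93 to -0.87, and its probe was 2.38-fold lower in liver (adjusted p 6.96e-09), whereas lung and forestomach did not differ past the threshold (adjusted p 0.222, 95% interval of the difference -0.33 to 0.03). The lung to liver difference of Cdk4, 1.10 with this probe, was 0.56 and 0.37 with its others and was not called with those.

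Ccne1 was the one gene called lower in lung than in forestomach (-1.09 ± 0.25, 2.13-fold, adjusted p 0.00283). Its other probe was not well above background on any vehicle array of the 3 tissues and is left out. Its difference between liver and forestomach, 1.58-fold lower in liver, did not pass (adjusted p 0.0569). Without the liver array of vehicle mouse 5 it was -0.98 on the log2 scale and was called. Between lung and liver Ccne1 differed by -0.43, with an adjusted p of 0.213. Cdk2 differed by 1.35-fold between lung and liver, under the fold threshold. Ccne2 and Cdk6, not above background, are left without an order. With median centring several differences were no longer called: Cdk4 and Cdkn1b between lung and liver, Ccnd1 (adjusted p 0.0564) and Ccnd3 between lung and forestomach, and Ccnd3, Cdk4 and Cdkn1b between liver and forestomach. Under that setting 4 genes were called lower in liver than in forestomach, not all of them called in the main analysis. None of the called differences changed sign under any alternative run.

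**Figure D4:**
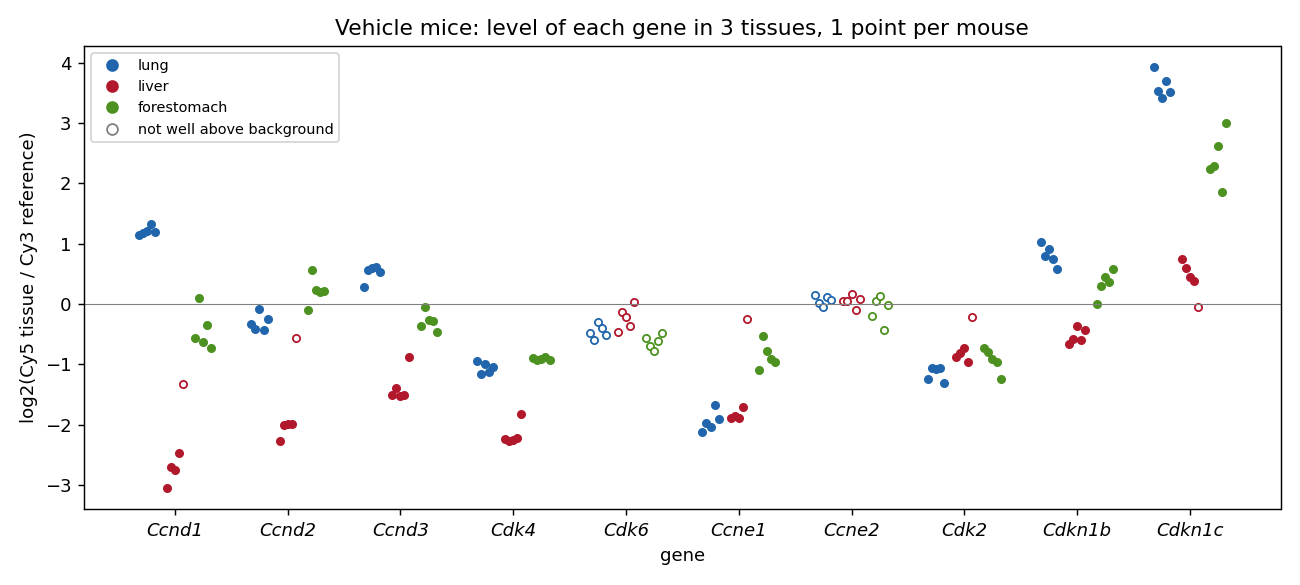
Log2 ratio to the reference RNA (y axis) of the 10 genes (x axis) in lung, liver and forestomach of the 5 vehicle mice. Each point is 1 mouse and is open where the probe was not well above background; Ccnd1 runs from 1.15 to 1.33 in lung and from -3.05 to -1.32 in liver, and the single high liver points of Ccnd1, Ccnd2, Ccnd3, Cdk4, Ccne1 and Cdk2 are mouse 5 on the third liver slide.

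Of 28 other genes of the passage from G1 to S phase that were listed (retinoblastoma family, E2F factors and their partners, further inhibitors, the Cdk7 complex and targets), 27 were on the array, and 7 were called at some dose, all in lung. At the low dose 5 were called higher and 0 lower, at the medium dose 4 higher (5 with median centring) and 1 lower (0 with median centring), and at the high dose 2 higher and 0 lower, against 10 higher with median centring. Without mouse 6 the low-dose count was again 5, and without mouse 13 the medium-dose counts were again 4 and 1. The shares of all genes called are those given for lung above. With median centring they were 0.517, 0.918 and 8.13% at the low, medium and high dose. Cdkn1a (p21), the inhibitor that p53 turns on, was the one gene called at all 3 doses in the main analysis. With median centring Ccna2, E2f7 and Cks1b were called at all 3 doses as well. Cdkn1a was -1.04, -0.99, -1.04, -1.497 and -0.21 in vehicle mice 1 to 5 and 1.59, 1.91, 1.18, 1.76 and 2.11 in high-dose mice. Its changes were 1.43 ± 0.22, 1.64 ± 0.21 and 2.66 ± 0.21. Cdkn1a thus rose while Cdkn1c fell.

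E2f7 and E2f8, repressors within the E2F family, and Ccna2 (cyclin A2, which follows cyclin E) had their largest changes in lung at the low dose. Ccna2 was -4.22 to -3.54 in vehicle lung, -2.29 to -1.83 at the low, -2.74 to -2.32 at the medium and -3.84 to -2.93 at the high dose. The first 2 of these dosed groups lay clear of vehicle and the last overlapped with it. The changes of Ccna2 were 1.81 ± 0.16, 1.42 ± 0.15 and 0.37 ± 0.15, those of E2f7 were 1.09, 0.83 and 0.43, and those of E2f8 were 0.80, 0.63 and 0.01. Without mouse 6 the low-dose changes were 1.82 for Ccna2, 1.14 for E2f7 and 0.86 for E2f8. Cks1b, a small subunit of cyclin-kinase complexes, was called only at the low dose (0.71 ± 0.10), but at every dose with median centring. E2f3, an activating E2F, was called only at the high dose (0.71 ± 0.09). Cdkn2a, which inhibits Cdk4 and Cdk6 through its p16 product, was called lower at the medium dose (-0.94 ± 0.24), where mouse 13 at -3.97 lay within the vehicle range of -4.26 to -3.74 and the other 4 mice, at -5.71 to -4.92, lay below it. Without mouse 13 the change was -1.20, and Cdkn2a was then also called at the high dose (-0.74).

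**Figure D5:**
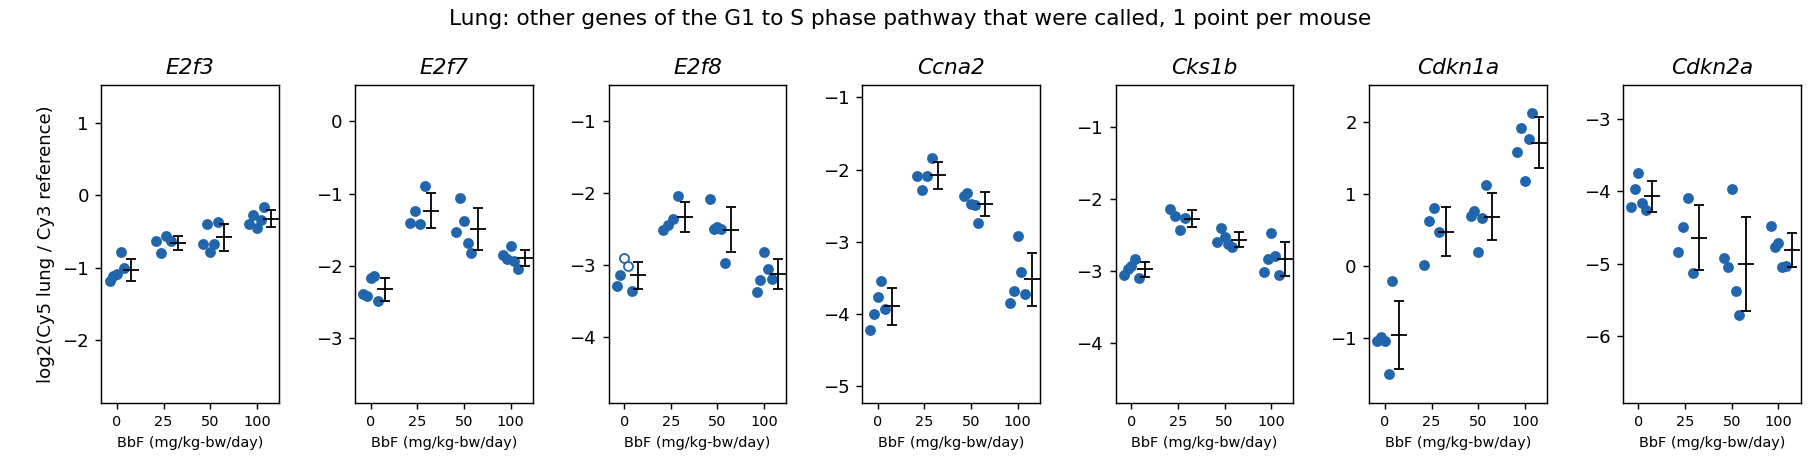
Log2 ratio to the reference RNA in lung (y axis, the same span in each panel) by BbF dose in mg/kg-bw/day (x axis) for the 7 other genes of the pathway that were called at some dose. Each point is 1 mouse, open where the probe was not well above background, with the group mean ± SD beside it; Ccna2, E2f7, E2f8 and Cks1b are highest at the low dose, Cdkn1a and E2f3 at the high dose, and with median centring each of these kept its sign while Cdkn2a was no longer called.

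In liver none of the 27 was called, and 23, 24 and 25 of them had positive changes at the low, medium and high dose. Without the third slide 0, 1 and 4 were called higher, and 18, 20 and 19 were positive, whereas median centring with all slides left 5, 5 and 3 positive. In forestomach none was called, and 11, 17 and 18 were positive, or 26, 25 and 25 with median centring. The median change of the 27 genes in lung was 0.20, 0.16 and 0.07 at the low, medium and high dose.

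Markers of other cells and of cycling cells moved in the same lung samples. Of 6 proliferation genes, 4 were called higher at the low dose (Mki67, Top2a, Pcna and Cdk1), 4 at the medium dose (Mki67, Top2a, Pcna and Mcm2) and 0 at the high dose, or 3 with median centring. Without mouse 6 the low-dose count was 3, Cdk1 being no longer called. Their mean log2 ratio was -3.38 to -2.96 in vehicle, -2.37 to -2.19 at the low, -2.72 to -2.33 at the medium and -3.24 to -2.47 at the high dose. Mki67, the marker of cycling cells, changed by 2.13 ± 0.20, 1.65 ± 0.19 and 0.62 ± 0.19. Of 4 endothelial genes, Cdh5 (0.82) and Pecam1 (0.74) were called higher in high-dose lung, while Kdr and Tek gave -0.20 and -0.30, and the mean of the list was 3.78 to 4.19 in vehicle and 4.00 to 4.45 at the high dose. None of the T cell, myeloid or lung epithelial markers was called there. In liver the 6 proliferation genes were all positive at each dose and none was called, with a list mean of -3.63 to -1.31 in vehicle and -3.09 to -1.04 at the high dose; without the third slide 2 were called at the high dose and 3 of 6 were positive at the low dose. The part of these cells in the changes of the cyclins was not tested.

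Over the 19 lung arrays Ccnd2 and Ccnd3 followed Ccnd1 most closely among the 10 genes, with Pearson r of 0.903 and 0.834, and Cdkn1b (-0.687) and Cdkn1c (-0.598) ran against it. These arrays share doses and slides, so the correlations describe the 19 arrays only. Among 12414 other named genes above background on every lung array, the 5 with the highest r were Mmrn2 (0.964), a matrix glycoprotein of blood vessels, Adam15 (0.947), a membrane metalloproteinase, Ackr3 (0.947), an atypical chemokine receptor, Rhoc (0.935), a small GTPase, and Tnfrsf10b (0.935), a death receptor. All 5 were called higher in high-dose lung, with changes from 0.79 (Rhoc) to 2.75 (Mmrn2). In forestomach r with Ccnd1 was 0.646 for Ccnd2 and 0.657 for Ccnd3 over 20 arrays. In liver Ccne1, Cdk2 and Cdk4 also had r between 0.660 and 0.731 with Ccnd1 over 20 arrays, 8 of them on the third slide.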

How the data were processed

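The authors labelled total RNA of lung, liver and forestomach with Cy5 and hybridized it together with Cy3-labelled reference RNA to Agilent 2-colour mouse arrays, without dye swaps. Spot intensity values were deposited as read by Feature Extraction 10.7.3.1. The authors also deposited a table of processed log2 ratios, used as an alternative. No column was left unmatched to a sample.

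Median intensities without background correction, as in the study's methods, were loess-normalized within each array in limma 3.58.1 (R 4.3.3). Of 62976 spots, 59305 were not controls; non-uniform spots were left out and repeated spots were averaged to 55681 probes. Probes were named by RefSeq accession (26413 matched a symbol of GRCm38.p6, used for names), and the other transcripts kept the name in the files. All 4 dose groups of a tissue entered 1 limma fit, and the 15 vehicle arrays another; p-values are 2-sided and adjusted over all probes. limma stood in for the Fs statistic of the study. The procedure was tested on simulated data. The number of arrays limits the precision.

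The rule for named genes takes the 10 genes in all groups, the 28 listed pathway genes where called at any dose, and the 5 genes most like Ccnd1 in lung. Skp2 of the pathway list and Cd68 of the myeloid markers were not matched to a probe. The result of 1 marker list is not reported here. The genes and lists were chosen with earlier results of these data known. Alternatives were median centring, normexp background correction (offset 50), the authors' values, slide as a block, a filter on dim probes, the mean of all probes, leaving out the third liver slide or each mouse, and, for vehicle tissues, the mouse as a block (the labels give a number to the same animal in each tissue) and slide as a random effect.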

Additional observations from a re-analysis of the deposited data

Results flagged for a closer look

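In 11 of 120 groups of 4 or 5 mice 1 value stood apart from the others by Dixon's criterion, where chance gives about 1 in 20. Of these, 4 were vehicle liver mouse 5, whose array is on the third liver slide, which is dim: Ccnd2 at -0.56, Ccnd3 at -0.88, Ccne1 at -0.25 and Cdk4 at -1.82, each the highest of its group. In lung low-dose mouse 6, the array with high squamous keratins, had the lowest Ccnd1 (1.20), and vehicle mouse 1 the lowest Ccnd3 (0.29). In liver high-dose mouse 16 had the lowest Ccnd1 (-1.17), high-dose mouse 19 the lowest Ccne2 (-0.25, at background) and low-dose mouse 6 the lowest Cdkn1c (-0.20). In forestomach low-dose mouse 7 had the highest Ccnd3 (0.0082) and low-dose mouse 9 the highest Cdk2 (-0.60).

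Cdkn1b went opposite ways in the 2 tissues at the high dose: each of the 5 lung mice lay below the vehicle mean, by 0.45 on average (-0.45), and each of the 5 liver mice above it, by 0.19. The difference between the tissues was not tested, and with median centring the signs turned to 0.04 and -1.27.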

How the results depend on the processing

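Of 188 recomputed counts of called members, 169 stayed within 1.5 times of the reported count and 19 did not. The 169 include counts that were 0 in the main analysis and stayed at 0, such as all those of forestomach. They are therefore no measure of how stable the calls are. The alternatives that were chosen after seeing the data are leaving the third liver slide out of the vehicle comparison and combining its omission with median centring. Members called in high-dose liver numbered 0 in the main analysis and 1 (Ccnd1) with slide as a block. Ccnd1 was also called without the third liver slide, both with loess and with median centring. The same held without high-dose mouse 16 or vehicle mouse 5 (range 0 to 1 over mice left out). With the filter on dim probes Ccnd1 was called too. A probe passed that filter if a single group had no array on which it was dim. In liver Ccnd1 was well above background on 5 of 5 arrays at each dose, but on 4 of 5 vehicle arrays. It thus passed only through the dosed groups, and the call under the filter is not counted as further evidence of a rise. In medium-dose liver members called were 1 with slide as a block (against 0.148% of all genes). They were also 1 without the third slide, both with loess (0.49%) and with centring (0.258%). In lung, members called with median centring numbered 1 at the low (against 0.517% of all genes) and 3 at the medium dose (0.918%). With normexp they numbered 2 at the medium dose (0.624%). Over mice left out they ran from 0 to 3 at the medium dose (0 without medium-dose mouse 12 or vehicle mouse 1). At the high dose they ran from 2 to 4 (2 without vehicle mouse 1). Between vehicle lung and forestomach, members called were 2 with median centring. The share of all genes was not computed for the filter, most single mice left out and the alternatives of the vehicle tissues.

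Median centring moved the change of Ccnd1 to 1.61 in high-dose lung and to 0.11, 0.26 and -0.0097 in high-, medium- and low-dose liver, where the median change of all genes at the high dose was then -0.12. It also turned the sign of changes of other members in liver, where no member was called in the main analysis. The mouse as a replicate block, a paired analysis of the vehicle tissues, gave the same 6, 4 and 6 members called, with Ccnd1 3.67 higher in lung than in liver, and changed no call. No dose comparison could be paired, since each mouse had 1 dose. Dim arrays limit what the liver data can show.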
